A study of Mus musculus with 6 samples.

Results

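The Kruppel-like factors (KLFs) measured here are 10 genes, Klf2, Klf3, Klf4, Klf5, Klf6, Klf7, Klf9, Klf10, Klf13 and Klf15, taken by symbol from the annotation of the arrays. They were read by 27 of the 22626 probe sets in the deposited table, and every member had at least 1. The groups were SCN tissue from mice given a light pulse (3 arrays) and SCN tissue from mice given a sham light pulse (3 arrays). All were adult male C57BL/6 mice of 2 to 4 months, kept in a 14:10 light/dark cycle. The light pulse of 2400 lux and the sham, which was darkness, both lasted 30 minutes and began 1 hour after lights off, and tissue was taken directly afterwards. Each array held RNA pooled from 3 mice, with 6 sections of 12 μm per mouse lifted out by laser capture, so single mice cannot be told apart and p-values measure the spread between pools. From each pool 1 ng of total RNA passed through 2 rounds of linear amplification before hybridization to an Affymetrix Mouse 430A 2.0 array, which reads each transcript with a set of short probes. The amount of a transcript per cell and the number of cells that hold it cannot be told apart in such tissue.

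KLFs are zinc-finger transcription factors that bind GC-rich and CACCC sequences in gene promoters through a shared C-terminal domain, while their N-terminal regions recruit different coactivators or corepressors. Some members, among them Klf2, Klf4, Klf6 and Klf10, are known as genes that growth factors and other stimuli switch on within minutes to an hour. Klf9, Klf13 and Klf15 respond to steroid or thyroid hormones, and Klf9, Klf10 and Klf15 are known for daily rhythms in peripheral tissues. In neurons, Klf4 and Klf9 restrain axon growth and Klf6 and Klf7 favor it.

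Sequence upstream of the annotated start site was examined for the members because the study looked for the cAMP response element (CRE), the site to which CREB binds, in the promoters of light-induced genes. A RefSeq table (GRCm38.p6) held promoters for 8 of the 10 members, and Klf5 and Klf10 were not among them. The 250 bases before the start are shown for the members in the table whose highest probe set had no overlap between the groups, Klf4 (chr4:55532476-55532725, minus strand) and Klf2 (chr8:72318812-72319061, plus strand). Capitals mark the CRE core (TGACG, or CGTCA on the other strand), an E-box (CACGTG) or a MEF2 site.

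Klf4: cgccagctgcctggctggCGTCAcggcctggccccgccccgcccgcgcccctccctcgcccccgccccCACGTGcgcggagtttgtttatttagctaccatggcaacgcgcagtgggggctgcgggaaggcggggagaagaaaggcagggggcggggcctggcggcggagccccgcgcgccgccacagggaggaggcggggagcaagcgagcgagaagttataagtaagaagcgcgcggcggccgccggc
Klf2: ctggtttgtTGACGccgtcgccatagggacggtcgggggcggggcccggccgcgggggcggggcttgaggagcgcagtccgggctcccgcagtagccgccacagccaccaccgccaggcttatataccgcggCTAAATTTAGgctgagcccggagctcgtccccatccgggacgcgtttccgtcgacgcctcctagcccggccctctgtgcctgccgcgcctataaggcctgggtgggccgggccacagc

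The array signal of a probe set is in arbitrary units on a linear scale, and signals of different probe sets cannot be set against each other because probes differ in affinity. Light pulse and sham light pulse were compared on the log2 of the signal with limma, a linear model that pools information on variance across probe sets, and p-values were adjusted by Benjamini-Hochberg. The test ran over the 10340 probe sets whose rank 3 signal among the 6 arrays was at least 118.2, and lower signals are called near the floor here. Of the KLF probe sets 12 were kept, which represent 7 genes, and 15 were left out. Klf2, Klf3 and Klf10 had no kept probe set, and their values come from a fit of all probe sets. Limma called 7 kept probe sets at an adjusted p under 0.05, all higher after the light pulse, or 0.0677% of those tested, and none was a KLF. In the fit of all probe sets it called 8, or 0.0354%, and again no KLF. Limma gave 1 of the 12 kept KLF probe sets an unadjusted p under 0.05, that of Klf4, which was higher after the light pulse, against 2.11% of all kept probe sets in that direction. Over all 27, with the left-out ones from the fit of all probe sets, it gave 3, all higher, against 2.86% of all probe sets. Cyber-T, the Bayesian test of the study written anew, called no KLF at an adjusted p under 0.05 and also gave 1 and 3 at an unadjusted p under 0.05. Its unadjusted p for the first Klf4 probe set was 2.54e-04. With 3 arrays in each group the smallest p of an exact permutation test is 0.1.

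All 8 SCN markers checked (Vip, Grp, Avp, Calb1, Clock, Penk, Arntl and Gad1) were kept. So were 6739 of all 12393 genes, so being kept does not by itself identify the tissue. On every array Vip stood between the percentiles 99.91 and 99.96 of all probe sets. The 8 markers had a median log2 fold change of 0.09. Of these 2, Vip and Grp, had no overlap, with light pulse higher, against 6.75% of all genes by their highest probe set. Vip had a log2 fold change of 0.43 with an unadjusted p under 0.05 by limma but not by Cyber-T, and limma called 0 of the 8. Correlations between arrays across the kept probe sets ran from 0.886 to 0.935. Light pulse replicate 3 stood apart for Ttr, the choroid plexus transcript of transthyretin. Summed over the 4 measured markers of choroid plexus and ependyma, signals ran from 127.7 to 110593 on light pulse arrays, against 188.0 to 375.0 under sham. Low signals were also higher on light pulse replicates 1 and 3 than on the sham arrays, while light pulse replicate 2 lay within the sham range. The median signal of the left-out probe sets was 31.2, 26.3 and 30.7 on the light pulse arrays, against 25.8, 26.5 and 24.0 under sham, and their median log2 fold change was 0.24, against 0.00 for the kept probe sets. Differences in low KLF signals are to be read against that shift.

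With 1 probe set per gene, the one of highest mean signal, 3 of the 10 KLF genes, Klf2, Klf4 and Klf10, had their lowest light pulse signal above their highest sham light pulse signal. No member had the reverse. Among all 12393 genes, each by its highest probe set, 6.75% had no overlap with light pulse higher and 3.53% no overlap with light pulse lower. The 10 log2 fold changes had a median of 0.16, against 0.06 over all genes taken the same way, and 6 of the 10 lay above 0, against 54.7% of all genes. Over all 27 KLF probe sets the median was -0.08, against 0.07 over all 22626 probe sets. With signals quantile normalized, Klf4 and Klf10 still had no overlap and Klf2 did. With 1 array left out in turn, the count of members without overlap ran from 3 to 4. It could not fall, since leaving out an array cannot make separate groups overlap.

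**Figure D1:**
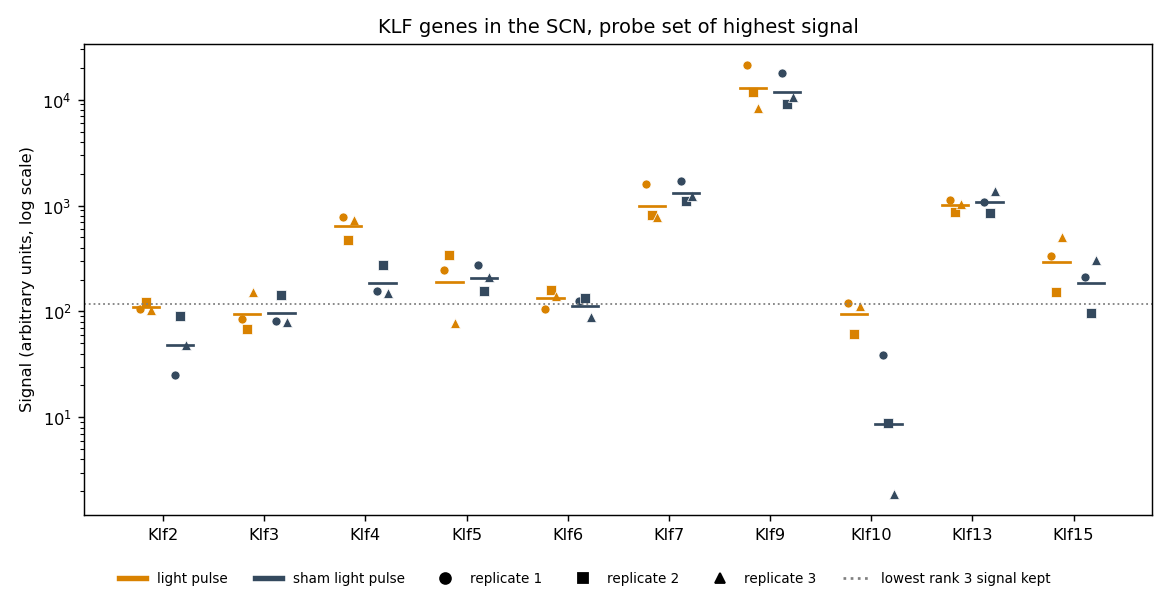
Signal (arbitrary units, log scale) of the highest probe set of each KLF gene on 3 light pulse and 3 sham light pulse arrays. Points are arrays, horizontal bars geometric means and the dotted line the lowest rank 3 signal kept, 118.2. Klf2, Klf4 and Klf10 have no overlap between the groups, and Klf2 and Klf10 lie near or below the line.

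Klf4, a factor of epithelial differentiation and of pluripotency that also restrains the cell cycle, had the smallest p among the members. The first of its probe sets (1417394_at) had signals of 782.1, 469.3 and 728.0 after the light pulse and 154.5, 271.8 and 148.3 after the sham light pulse. The lowest light pulse signal was above the highest sham light pulse signal, and all 6 arrays were above the lowest signal kept. The means were 659.8 ± 167 after the light pulse and 191.5 ± 69.6 after the sham light pulse (SD, n = 3 arrays each). The ratio of geometric means was 3.50-fold (95% confidence interval 2.02 to 6.05). Its unadjusted p from limma, 2.47e-04, ranked 9 among the 10340, and its log2 fold change ranked 53. The adjusted p of 0.284 did not pass. Cyber-T gave an adjusted p of 0.296, and across the alternatives the adjusted p was lowest at 0.0781, when sham light pulse replicate 2 was left out, and highest at 0.940, when the third sham light pulse array was. Without light pulse replicate 3, the array with the Ttr signal, the log2 fold change was 1.72.

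The second Klf4 probe set (1417395_at) differed in the same direction at signals near the floor. It had 123.1, 85.9 and 39.3 after the light pulse and 36.7, 3.5 and 5.8 after the sham. Here too the groups did not overlap, although the lowest light pulse signal lay just above the highest sham light pulse signal, and after quantile normalization they did overlap. Its log2 fold change of 3.04 (standard error 1.22) came from the fit of all probe sets (limma, adjusted p = 0.963). With an offset of 50 added before the log2 it was 1.01, and with 1 array left out it was lowest at 2.35, without sham light pulse replicate 2, and highest at 4.05, without the first sham array. Both probe sets read the same gene in the same 6 pools and are not independent.

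Klf10, a factor induced by transforming growth factor beta, had a single probe set. Its signals were 118.9, 61.2 and 112.4 after the light pulse and 39.0, 8.8 and 1.9 after the sham light pulse. Every light pulse signal was above every sham light pulse signal, but just 1 of the 6 arrays reached 118.2. The log2 fold change of 3.43 (standard error 1.23) had a 95% confidence interval from 0.85 to 6.01 and an unadjusted p of 0.0120 from limma in the fit of all probe sets. It did not pass the adjustment (limma, adjusted p = 0.963). Its size depended on the lowest signals, since the offset of 50 reduced it to 1.16, and with 1 array left out it was lowest at 2.34, without sham light pulse replicate 3, and highest at 4.52, without the first sham array. Of the 15 left-out KLF probe sets 4 had a log2 fold change above 1, against 25.7% of all left-out probe sets, and 3 had one below -1. The median of the 15 was -0.39, against 0.24 over all left-out probe sets.

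Klf2, which keeps endothelium and resting lymphocytes quiescent, also had 1 probe set. It read 105.7, 122.5 and 103.9 after the light pulse and 25.0, 90.8 and 48.1 after the sham light pulse. The light pulse arrays lay close together and above the sham light pulse arrays. A log2 fold change of 1.21 (standard error 0.79) came with an unadjusted p of 0.143 from limma, which did not pass. After quantile normalization the light pulse signals were 97.5, 124 and 89.1 and the sham light pulse signals 26.0, 94.5 and 55.2, so that the groups overlapped.

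Klf2 and Klf4 are also genes of vascular endothelium, so markers of vessels were measured beside them. The 13 of 14 listed markers that were measured had summed signals of 1540 to 2398 on the light pulse arrays, against 2094 to 2763 under sham. Of the 6 kept markers 1 lay above 0 (50.1% of all kept probe sets did), and their median log2 fold change was -0.36. Those of highest signal were Cldn5, a tight junction gene, at -0.47 (standard error 0.30), and the transporter gene Abcb1a, at -0.12 (standard error 0.39). Limma called 0 of them, and 1, the vascular growth factor receptor gene Flt1, had an unadjusted p under 0.05 by limma and by Cyber-T, with a log2 fold change of -1.55 (limma, adjusted p = 0.960). Pecam1, Cdh5, Tek, Tie1, Kdr, Esam and Eng were left out as low. The 6 mural cell markers summed to 2025 to 2807 on the light pulse arrays, against 2796 to 4645 under sham, and the 4 kept had a median of -0.39, with Rgs5 at -0.46 (standard error 0.28) and Pdgfrb at -0.33 (standard error 0.42). The 6 neuron markers summed to 6160 to 7326 on the light pulse arrays, against 7622 to 10077 under sham, and the 4 kept had a median of 0.05, with Snap25 at -0.63 (standard error 0.24) and Eno2 at 0.01. In each of these lists limma called 0 and gave 1 gene an unadjusted p under 0.05, as Cyber-T did. These were Flt1, Snap25 and, among the mural cell markers, Acta2, at -1.72 (standard error 0.73). Limma gave 4.31% of all kept probe sets an unadjusted p under 0.05, in either direction. Among the kept vessel (6), mural (4) and neuron (4) markers, Flt1, Rgs5 and Snap25 had every light pulse signal below every sham signal, and none had the reverse. Over all genes, kept or left out, each by its highest probe set, 3.53% had no overlap with light pulse lower. Kept markers of astrocytes (7), oligodendrocytes (5) and microglia (4) had medians of 0.12, 0.05 and -0.02, and neither test called any or gave one an unadjusted p under 0.05. The part of cell composition in the KLF values was not tested.

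**Figure D2:**
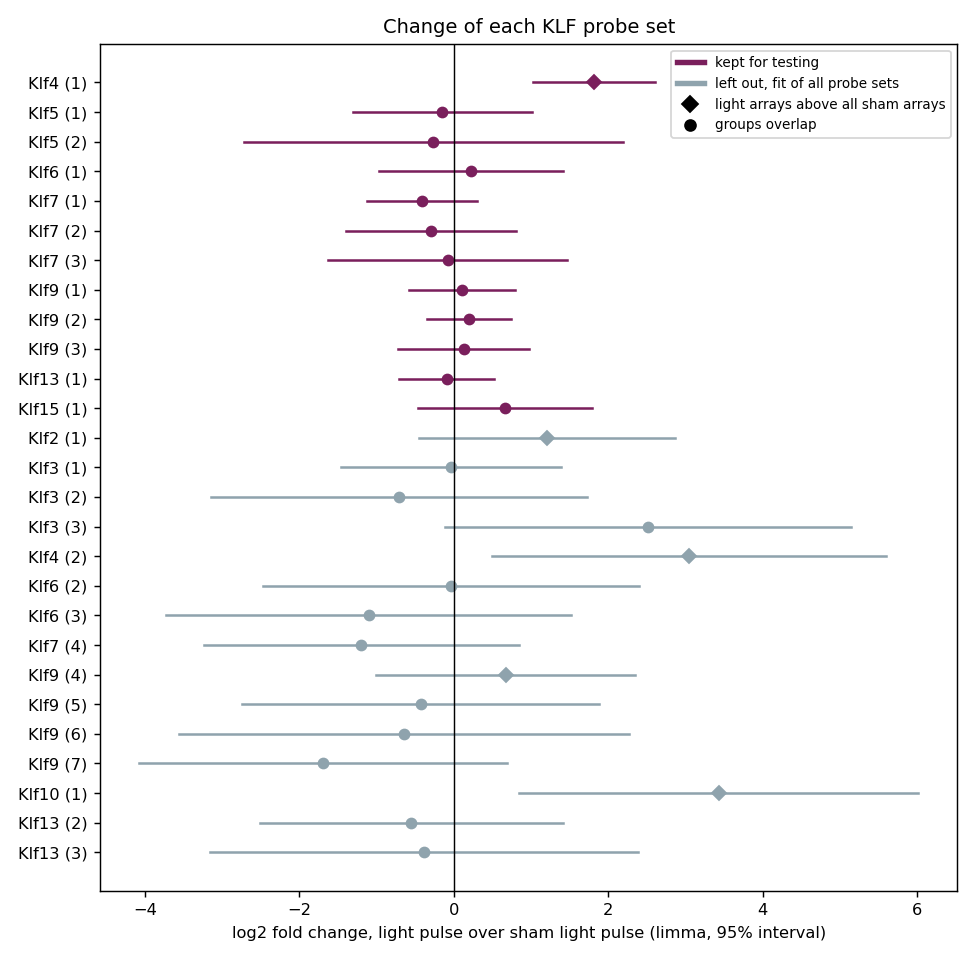
The log2 fold change, light pulse over sham light pulse, of all 27 KLF probe sets with its 95% confidence interval from limma; numbers in parentheses order the probe sets of a gene by mean signal. The 12 kept probe sets stand above the 15 left out, and diamonds mark those whose groups did not overlap. The intervals of the first Klf4, the second Klf4 and the Klf10 probe sets lie above 0.

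Klf9, a hormone-responsive factor of neurons, had 7 probe sets, of which 3 were kept. The probe set of highest signal (1456341_a_at) had 21054, 11918 and 8383 after the light pulse and 17702, 9030 and 10611 after the sham light pulse. On every array the signal stood between the percentiles 97.6 and 99.1 of all probe sets. The groups overlapped over their whole range, and replicate 1 was the highest array in each group. Its log2 fold change was 0.10 (standard error 0.32) and its 95% confidence interval, from -0.58 to 0.79, spans 0.667-fold to 1.73-fold. The next probe set (1428288_at) read 4041, 3739 and 6258 after the light pulse and 4359, 4237 and 3407 after the sham light pulse, with a log2 fold change of 0.20 (95% confidence interval -0.35 to 0.75). The third (1428289_at) read 2289, 1975 and 1580 after the light pulse and 3758, 1340 and 1086 after the sham light pulse, with 0.13 (95% confidence interval -0.72 to 0.98).

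The other 4 Klf9 probe sets had signals from 1.8 to 93.3 and were left out. One of these (1436763_a_at) had no overlap, at 74.8, 83.7 and 86.1 after the light pulse against 44.2, 65.9 and 45.8 after the sham light pulse. It differed from the 3 kept probe sets of the same gene, which overlapped, and it overlapped after quantile normalization. Of the 15 left-out KLF probe sets 4 had every light pulse signal higher than every sham signal, against 7.58% of all left-out probe sets.

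Klf7, which favors neurite outgrowth in development, had lower mean signals after the light pulse at all 4 probe sets. The first (1419354_at) had 1589, 805.4 and 771.5 after the light pulse and 1697, 1102 and 1237 after the sham light pulse. The groups overlapped, and replicate 1 was the highest array in both. A log2 fold change of -0.41 (standard error 0.33) was fitted, and its 95% confidence interval ran from -1.12 to 0.30 (limma, adjusted p = 0.960). The other 2 kept probe sets had log2 fold changes of -0.30 and -0.08, and the left-out one had -1.20 (standard error 0.97).

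**Figure D3:**
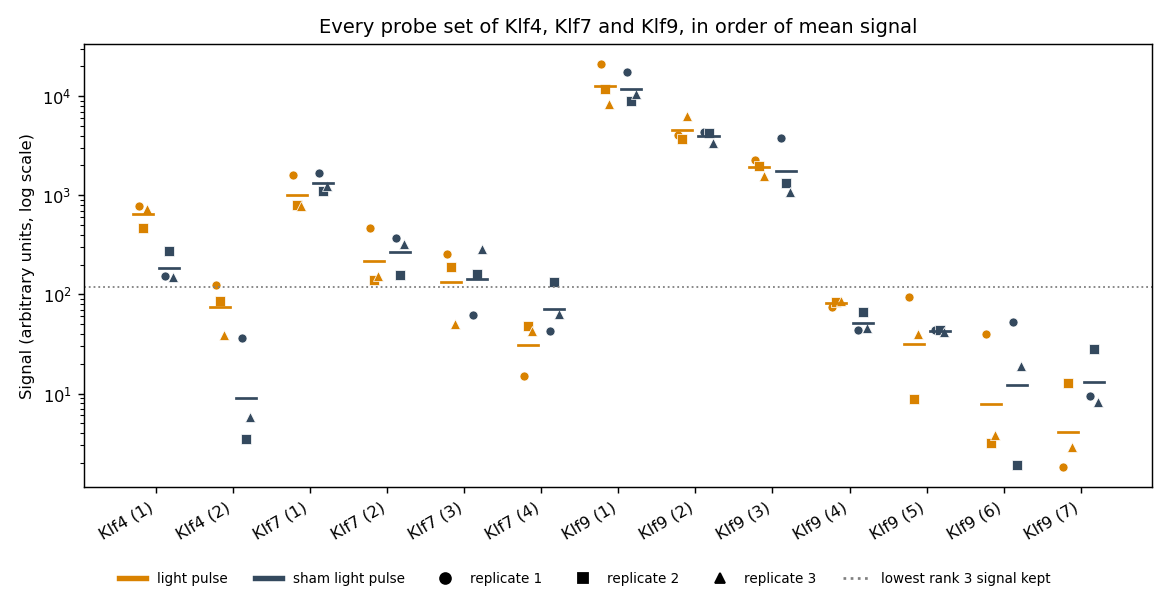
Signals (arbitrary units, log scale) at every probe set of Klf4, Klf7 and Klf9, numbered in order of mean signal, with 1 point per array and a marker shape per replicate number; bars are geometric means. The groups lie apart at both Klf4 probe sets, and the 3 high Klf9 probe sets overlap.

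Klf15, a regulator of amino acid and glucose metabolism that glucocorticoids induce, read 330.1, 152.1 and 500.6 after the light pulse and 212.5, 96.9 and 305.9 after the sham light pulse. Replicate 3 was the highest and replicate 2 the lowest in both groups, and the groups overlapped. Its log2 fold change was 0.67 (standard error 0.52) and its 95% confidence interval ran from -0.46 to 1.79 (limma, adjusted p = 0.960). It was lowest at 0.20 without sham light pulse replicate 2, highest at 1.14 without light pulse replicate 2, and 0.28 without light pulse replicate 3. Klf13, a close relative of Klf9, had 1140, 876.3 and 1034 after the light pulse and 1077, 857.1 and 1359 after the sham light pulse at its only kept probe set. Its log2 fold change of -0.09 had a 95% confidence interval from -0.71 to 0.52, and both other Klf13 probe sets, at signals of 4.9 to 119.1, overlapped between the groups.

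Klf5, a factor of proliferating epithelium and smooth muscle, had 247.8, 340.8 and 78.0 after the light pulse and 271.6, 155.2 and 212.7 after the sham light pulse at its first probe set. Light pulse replicate 3 was the lowest of all 6 arrays. With all arrays the log2 fold change was -0.15 (standard error 0.54), and without that array 0.48. Klf6, a growth-suppressing factor that injury induces in several tissues, had 105.3, 157.5 and 140.6 after the light pulse and 125.6, 132.4 and 88.0 after the sham light pulse. The groups overlapped, and the log2 fold change of 0.22 had a 95% confidence interval from -0.97 to 1.42. Both left-out Klf6 probe sets lay between 5.0 and 61.4.

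Klf3, a repressor that recruits CtBP, was near the floor at its 3 probe sets. The highest (1431630_a_at) had 84.1, 67.7 and 151.5 after the light pulse and 81.0, 143.7 and 79.5 after the sham light pulse, a log2 difference of -0.03 (standard error 0.68). The lowest (1421604_a_at) had 48.8, 18.8 and 25.4 after the light pulse and 1.8, 23.1 and 3.0 after the sham light pulse, a log2 difference of 2.52 (standard error 1.25). Its groups overlapped, and the probe sets of this gene gave different signs.

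**Figure D4:**
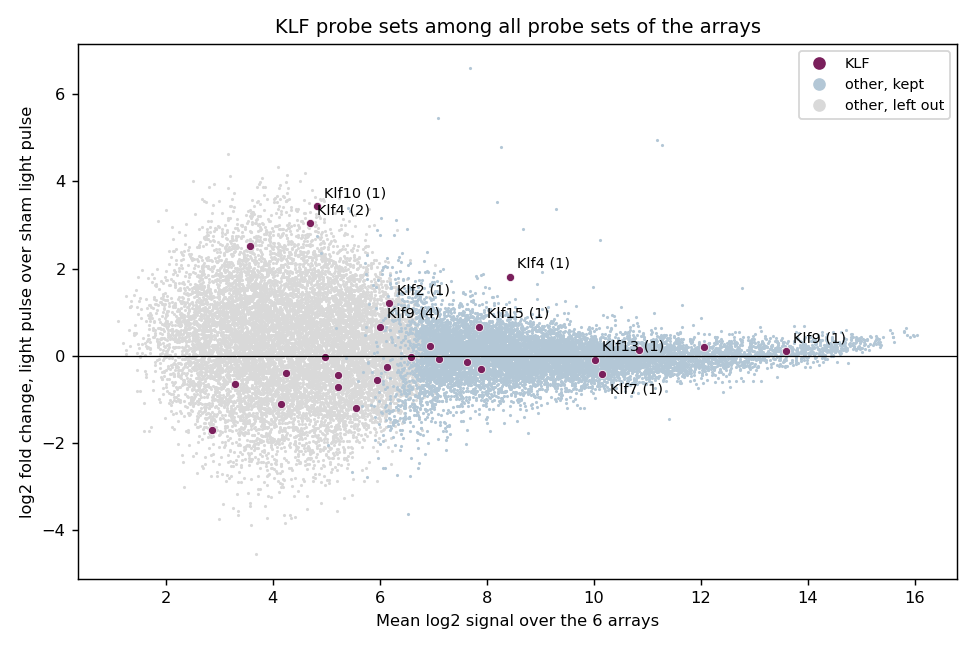
The log2 fold change, light pulse over sham light pulse, against the mean log2 signal over the 6 arrays for all 22626 probe sets, with the 27 KLF probe sets in purple. The spread widens as the signal falls, and the first Klf4 probe set lies above most kept probe sets of like signal, while Klf10 and the second Klf4 probe set lie within the wide cloud of low signals.

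The transcripts whose pattern over the 6 arrays was most like that of Klf4 were found by the root mean square difference of log2 signals, each centered on its own mean, among 6738 other genes with a kept probe set. The smallest was that of Maff, a small MAF transcription factor, at 0.29, where the median gene stood at 1.05. Maff read 161.7, 152.6 and 195.1 after the light pulse and 56.2, 93.4 and 37.2 after the sham light pulse. Zdhhc12 (0.34), Bcl9l (0.40), Smagp (0.41) and Dll3 (0.41) followed, and none of the 5 passed the adjustment (limma, adjusted p = 0.960 for each). Maff, Bcl9l and Smagp had every sham signal below the lowest signal kept, so they were kept only because every light pulse signal reached it. Part of their likeness to Klf4 thus follows from the filter, which did not force this for Zdhhc12 and Dll3. For Klf9, the member with the highest mean log2 signal, the nearest were Nat8 (0.13), B4galt6 (0.14), Syt11 (0.15), S100a6 (0.15) and Acaa1a (0.17), each of which was highest on replicate 1 in both groups. These distances are descriptions over 6 arrays.

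Relatives and partners of the KLFs gave no called gene. Of 7 further KLF genes 4 had a probe set and 1, Klf16, was kept, with a log2 difference of 0.94 (standard error 0.55). Its groups did not overlap, but its sham signals (113.8, 85.9 and 73.7) all lay below the lowest signal kept. Such a probe set is kept only when every light pulse signal reaches that limit, so the filter alone excludes overlap. Among the SP factors, which bind the same GC-rich sites, Sp1 and Sp4 were kept of 6 measured, at -1.21 (standard error 0.57) for Sp1 and -0.03 (standard error 0.47) for Sp4. Of 15 coregulators that KLFs recruit or that degrade them, 11 were kept and 5 of these lay above 0, with a median of -0.04. Those of highest signal were the corepressor genes Ctbp1, at -0.17 (95% confidence interval -0.64 to 0.30), and Sin3b, at 0.10 (95% confidence interval -0.45 to 0.66). Over all these kept genes limma called none, and none had an unadjusted p under 0.05 by limma. By Cyber-T 1, Sp1, had one. Over all kept probe sets 4.31% had an unadjusted p under 0.05 by limma, in either direction.

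The ERK5 and MEF2 pathway, which induces Klf2 and Klf4 in endothelium, had 7 of 11 genes kept, 5 of them above 0, with a median log2 fold change of 0.13. Mef2d had 0.29 (95% confidence interval -0.32 to 0.89) and Mef2a -0.19 (95% confidence interval -0.86 to 0.48). Of 22 genes known as KLF targets, 9 were kept, 5 of them above 0, with a median of 0.00. Those of highest signal were Pdgfa, a growth factor gene, at -0.54 (standard error 0.30), and the receptor gene Tgfbr1, at -0.35 (standard error 0.30). Among the kept genes of both lists limma called 0, and none had an unadjusted p under 0.05 by limma or Cyber-T. Of the left-out genes Mef2b, at signals of 112.7, 56.0 and 136.7 after the light pulse, against 28.3, 5.7 and 28.2 under sham, had one by both tests in the fit of all probe sets (limma, adjusted p = 0.963). Of 10 genes that respond to glucocorticoids, as Klf9 and Klf15 do, 9 were kept and 7 lay above 0, with a median of 0.11. Limma called 0 and gave 1, the kinase gene Sgk1, an unadjusted p under 0.05, as did Cyber-T. The metallothionein Mt1 had 0.08 (standard error 0.22) and the NF-kappa-B inhibitor Nfkbia 0.10 (standard error 0.25).

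The GC content of the 8 upstream windows ran from 59.2% to 78.4%, against a median of 52.4% over the 32851 promoters of the table. All motifs were searched on both strands of these 250 bases only, a window and a set of letters that differ from those of the study. No member's window held the full CRE (TGACGTCA), found in 1.55% of all promoters and 2.79% of the 9271 with a GC content in the range of the members, nor a CArG box, the core of the serum response element (1.47% and 0.982%), nor TATAAA (12.4% and 2.83%). The shorter TATAA, which is part of TATAAA and was searched after the windows had been seen, was in the windows of Klf2 and Klf4 (22.8% and 5.71%), at positions -29 to -25 in Klf2 and -31 to -27 in Klf4, with a further match on the other strand in each. The core TGACG, which is also part of the full CRE, was in the windows of 5 of 8 members, Klf2, Klf4, Klf9, Klf13 and Klf15, against 17.8% of all promoters and 27.2% of those of like GC content. The 5 include Klf2 and Klf4, without overlap between the groups, and Klf9, Klf13 and Klf15, with overlap. The cores of Klf9 (chr19:23141165-23141199, plus strand) and Klf13 (chr7:63938952-63938986, minus strand), whose signals overlapped, are shown in capitals for comparison with those of Klf4 and Klf2 above.

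Klf9: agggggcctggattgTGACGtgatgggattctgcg
Klf13: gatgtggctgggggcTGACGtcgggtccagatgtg

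The E-box CACGTG, to which CLOCK and BMAL1 bind, was found upstream of Klf4, Klf6 and, at 2 places, Klf15, against 6.02% of all promoters and 9.44% of those of like GC content. A MEF2 site was found in 1 window, that of Klf2, at positions -118 to -109 from the start, and in 2.92% of all promoters and 0.593% of those of like GC content. The E-box and the MEF2 site were searched after the windows had been seen. The GC box GGGCGG was in 7 of 8 windows, all but that of Klf9 (32.7% of all promoters and 73.7% of those of like GC content), and CACCC, the core to which KLFs themselves bind, in 6 of 8 (52.0% and 65.5%). A match says that the letters are present, and binding was not measured here.

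**Figure D5:**
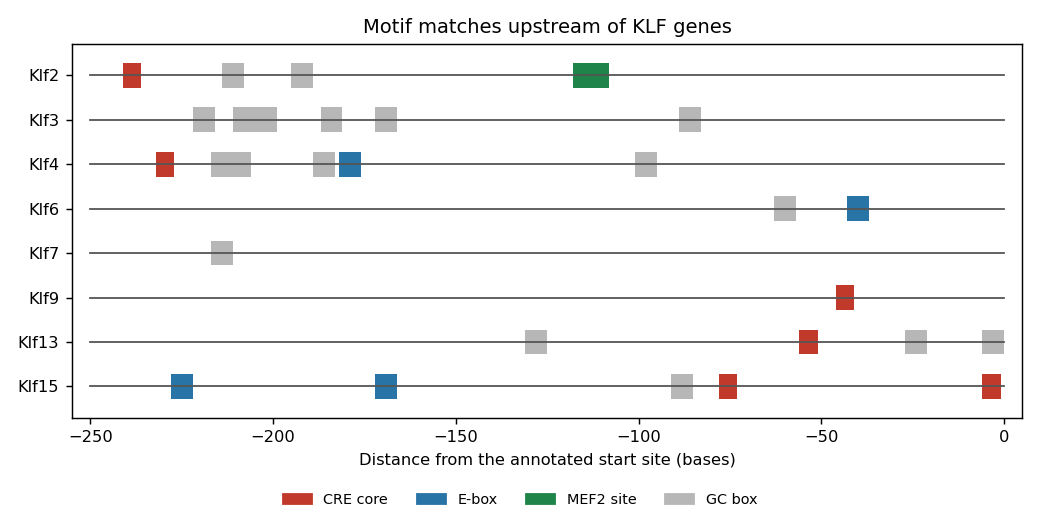
Motif matches in the 250 bases before the annotated start site of 8 KLF genes, on an axis of distance from the start in bases; red marks the CRE core, blue the E-box, green the MEF2 site and gray the GC box. The cores of Klf4 and Klf2 begin at -232 and -241 bases, and those of Klf9, Klf13 and Klf15 lie nearer to it.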

How the data were processed

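The deposited intensity of each probe set is a signal on a linear scale that the authors generated in GCOS software with MAS5 and brought to a common level on every array (trimmed means 492.3 to 494.8 for light pulse, 494.6 to 495.6 for sham light pulse). No present calls were used here. Platform annotation gave 20380 probe sets 1 symbol, 691 several and 1555 none. Log2 signals, with no offset, were compared with limma 3.58.1 in R 4.3.3 (lmFit, eBayes with an intensity trend, two-sided), with p-values adjusted over all probe sets tested. The filter stands in for the present calls of the study and keeps the share of probe sets that it kept. Cyber-T was rewritten (window 101, prior weight 10). Both were tested on simulated data. The probe set of highest mean log2 signal stands for its gene.

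Members and lists were chosen with earlier results of these data known. All members are named, and of each list its called genes or else the 2 of highest signal. So are the 5 patterns nearest to Klf4 and to the member of highest signal. Flt1, Acta2, Sgk1, Mef2b and Grp were named after their values were seen. Alternatives were other filters and normalizations, an offset, no trend, Cyber-T, a replicate block, subsets of probe sets and each array left out. With 3 arrays per group, their number limits the precision.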

Additional observations from a re-analysis of the deposited data

How the results depend on the processing

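No KLF probe set passed an adjusted p of 0.05 under any of the 16 alternatives. Of the 400 alternative log2 fold changes 371 kept their direction, but many of these could not change. Other filters, no trend, Cyber-T, the replicate block and the subsets of probe sets leave each log2 fold change as it is. The 29 that turned did so with an array left out (27) or with the offset (2). The first Klf4 probe set, the second, Klf10 and Klf2 were higher after the light pulse wherever they were measured. As the groups did not overlap at these probe sets, leaving out an array or adding the offset could not turn their direction. Only the other normalizations could have done so. The stricter filter of 5000 probe sets left out the first Klf4 probe set. Over all kept probe sets limma called 7, and 4 without the intensity trend, 8 with no filter and 5 to 8 with 1 array left out. With an offset of 50, log2 fold changes turned to 0.0555 at the second Klf6 probe set (1418280_at) and 0.0353 at the third Klf13 probe set (1456030_at). With 1 array left out in turn, the direction changed for 14 probe sets, all with 95% confidence intervals that span 0 in the full comparison. Their ranges were -0.37 to 0.25 (Klf3 1431630_a_at), -0.58 to 0.48 (Klf5 1451739_at), -1.08 to 0.79 (Klf5 1451021_a_at), -0.56 to 0.86 (Klf6 1418280_at), -0.86 to 0.0176 (Klf7 1449439_at), -0.68 to 0.63 (Klf7 1419356_at), -0.25 to 0.41 (Klf9 1456341_a_at), -0.0333 to 0.34 (Klf9 1428288_at), -0.22 to 0.67 (Klf9 1428289_at), -1.20 to 0.50 (Klf9 1436952_at), -1.9988 to 0.39 (Klf9 1422264_s_at), -0.26 to 0.0731 (Klf13 1436316_at), -1.16 to 0.42 (Klf13 1432543_a_at) and -1.60 to 0.49 (Klf13 1456030_at). The cause was not tested.

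With the replicate number as a block, limma called 6 probe sets and 0 of the KLFs, and Klf4 had an adjusted p of 0.935. Deviations of same-numbered arrays from their group means correlated at 0.096, -0.192 and -0.129, and those of differently numbered arrays at -0.111 to 0.203. With 3 arrays per group these values cannot decide whether the samples were paired, and the labels do not say. Signals near the floor limit Klf2, Klf3 and Klf10. Of 6 arrays, 1 reached the lowest rank 3 signal kept for Klf2, 2 for Klf3 and 1 for Klf10.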
